A study of Homo sapiens with 2 samples.

Results

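Mitochondria fold and destroy most of their own proteins, and the 10 genes described here encode the main nuclear-encoded machines that do so. HSPD1 and HSPE1 encode the barrel and the lid of the HSP60 folding chamber, HSPA9 the matrix HSP70, DNAJA3 a J-domain co-chaperone that stimulates it, and TRAP1 the mitochondrial HSP90. LONP1 and the CLPX and CLPP pair are soluble proteases of the matrix that run on ATP, whereas AFG3L2 and YME1L1 are membrane-bound proteases whose active sites face the matrix and the intermembrane space. When misfolded proteins build up in the organelle, cells can raise these genes, a programme known as the mitochondrial unfolded protein response. In mammals it overlaps with the integrated stress response, whose transcription factor ATF4 also acts on LONP1 and HSPA9.

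The genes were taken as a fixed list, with every probe set that the platform annotation gave them. All 10 of 10 were measured, among 18404 genes with a probe set of their own. Expression was measured in wild-type HL-60 cells, a human promyelocytic leukaemia line, grown in DMEM with 10% serum. Total RNA was hybridised to 2 Affymetrix Human Gene 1.0 ST arrays, labelled replicate 2 and replicate 1. They form 1 group with no treatment, mutation or control, so no test between conditions exists and no p-values are given. Whether they came from separate cultures is not given by the labels, so the spread may be technical.

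Values are the authors' log2 signals, and a difference is always replicate 2 minus replicate 1. Over all 18404 genes the difference had an SD of 0.39 and a median of -0.04, which is the spread against which a single gene is read below. Background was the 95th percentile of 360 olfactory receptor genes, at 2.88 on replicate 2 and 2.98 on replicate 1. A stricter threshold came from 116 keratin-associated protein, bitter taste receptor and beta-defensin genes, at 5.22 on replicate 2 and 5.40 on replicate 1. All 9 measured myeloid markers passed the olfactory threshold on both arrays, as did 2 of 15 markers of other cell types, CD79A of B cells and COL1A1 of fibroblasts. Over all genes 55.8% passed. The probe set shared by HBA2 and HBA1, also listed for other cells, was not counted because it has several symbols. It read 4.34 on replicate 2 and 4.30 on replicate 1, above that threshold. That of FCGR3B and FCGR3A, left out likewise, lay below it on both arrays. Of the 9 myeloid markers 3 read lower on replicate 2 by over 0.5 and 0 higher, against 9.58% lower and 7.95% higher over all genes. At any size 5 were lower and 4 higher, against 52.6% and 42.1% of all genes. The serine protease gene CTSG had the lowest difference, at 7.24 on replicate 2 and 8.99 on replicate 1. MYB had the highest, at 9.53 on replicate 2 and 9.29 on replicate 1. The part of these markers in the differences below was not tested. In RNA from a whole culture, fewer cells of a kind and less RNA per cell cannot be told apart.

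HSPD1 and HSPE1 lie head to head on chromosome 2 and are transcribed away from each other. In RefSeq (GRCh38.p14) HSPE1 starts at base 197500379 on the plus strand, and HSPD1 has starts at 197500274 and 197499840 on the minus strand. Only 104 bases separate the 2 nearest starts. They are shown on the plus strand of chr2:197500275-197500378, reading towards HSPE1, because both genes share them and their signals parted between the arrays. Capitals mark GGGCGG or its reverse complement, the core of the GC box.
HSPD1-HSPE1 stretch: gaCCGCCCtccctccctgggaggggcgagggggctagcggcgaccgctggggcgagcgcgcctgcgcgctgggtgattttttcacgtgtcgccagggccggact

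Of these bases 74.0% were G or C. The window 250 bases long before the HSPD1 start farther from HSPE1, at 197499840, held the only match of any member to GAANNTTC. This string holds 2 inverted GAA units of a heat shock element, and N is any base. The match lies between the 2 HSPD1 starts, outside the stretch shared with HSPE1. This match also lies before the HSPE1 start, but beyond the HSPE1 window, which begins at base 197500129. It is shown with its flanks on the minus strand of chr2:197500062-197500090, since these 2 chaperones are classical heat shock genes. Capitals mark the match. The flanks hold a further ttc before it and a further gaa after it, each 2 bases away. The share of promoters given below is for the string in capitals alone.
HSPD1 heat shock type match: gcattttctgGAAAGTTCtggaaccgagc

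Both strands were searched, and 5.78% of the 35116 RefSeq promoter windows of the same length held GAANNTTC. Promoter sequences were matched for 8 members (HSPD1, HSPE1, HSPA9, TRAP1, LONP1, CLPX, AFG3L2 and DNAJA3), of which HSPD1 and LONP1 have 2 windows each. GGGCGG was found in 9 of these 10 windows, all but that of the outer LONP1 start, against 42.6% of all windows. The windows of HSPE1 and of the nearest HSPD1 start overlap and hold the same match, so they are not separate observations. CCAAT was found in 2 of the 10, those of CLPX and DNAJA3, against 32.0% of all windows. A match is a string of letters and not evidence that a factor binds there.

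LONP1 and HSPA9 are the members with a reported link to ATF4, so the bases before their starts are shown as well. The HSPA9 sequence is the minus strand of chr5:138575402-138575651, which also lies inside the lncRNA gene LOC105379193. The LONP1 sequence is the minus strand of chr19:5720453-5720636, between its outer start and that of the divergent gene CATSPERD. Capitals again mark GGGCGG or its reverse complement, which the LONP1 stretch does not hold.
HSPA9: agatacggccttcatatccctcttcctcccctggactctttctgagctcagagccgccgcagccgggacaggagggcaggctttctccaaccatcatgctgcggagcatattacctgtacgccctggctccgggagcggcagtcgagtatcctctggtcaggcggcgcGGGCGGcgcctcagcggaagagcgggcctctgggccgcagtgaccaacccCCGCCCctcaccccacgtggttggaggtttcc
LONP1: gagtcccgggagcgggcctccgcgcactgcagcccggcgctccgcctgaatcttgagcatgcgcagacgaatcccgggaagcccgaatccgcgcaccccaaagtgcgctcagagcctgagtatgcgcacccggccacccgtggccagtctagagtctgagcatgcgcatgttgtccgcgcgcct

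TGATGNAA, a form of the composite element at which ATF4 binds with a C/EBP partner, was found on neither strand of any window before the 8 members. This includes both LONP1 starts, each with 250 bases. From a list of 27 known ATF4 targets, 21 had a promoter sequence, and it was found in 6 of their 29 windows, against 3.14% of all windows. The 6 matches are shown for comparison, each with 8 bases on either side, on the strand of the gene, with the match in capitals.
ATF3, chr1:212565208-212565231, plus strand: ggtcaggaTGATGGAAggctgtca
GARS1, chr7:30594837-30594860, plus strand: cgcggcgaTTTCATCAtgctccga
ASNS, chr7:97872461-97872484, minus strand: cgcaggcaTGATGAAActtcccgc
CHAC1, chr15:40953254-40953277, plus strand: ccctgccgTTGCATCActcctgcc
AARS1, chr16:70289678-70289701, minus strand: tctcgcagTTGCATCAgccaagtt
FGF21, chr19:48755462-48755485, plus strand: caccaggaTTGCATCAgggaggag

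The absence of these letters from a window says nothing about ATF4 at other sites of LONP1 or HSPA9, such as introns.

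All 10 chaperone and protease genes lay above the olfactory threshold on both arrays, as did 55.8% of all genes. Of the 10, 7 also passed the stricter threshold on both arrays, against 17.1% of all genes. The other three, TRAP1, LONP1 and CLPP, lay below the stricter threshold on both arrays. The median signal of the 10 was 6.03 on replicate 2 and 6.48 on replicate 1, where the median over all genes was 3.34 on replicate 2 and 3.35 on replicate 1. Since probes differ in brightness, a higher signal of one gene than of another does not show that it has more transcripts.

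Between the arrays, members other than HSPE1 and TRAP1 differed by less than the SD of 0.39 over all genes, and these 2 by more. These 2 of 10 read lower on replicate 2 by over 0.5 (1.41-fold), as did 9.58% of all genes, so the count alone does not set the group apart. No member read higher on replicate 2 by over 0.5, while 7.95% of all genes did. At any size, 8 members read lower on replicate 2 and 2 higher, against 52.6% and 42.1% of all genes. The median difference of the 10 was -0.11, and -0.05 over the other 8 when HSPE1 and TRAP1 were left out after their values had been seen. At a limit of 1 (2-fold) HSPE1 was the only member past it, on the lower side, as were 0.88% of all genes.

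**Figure D1:**
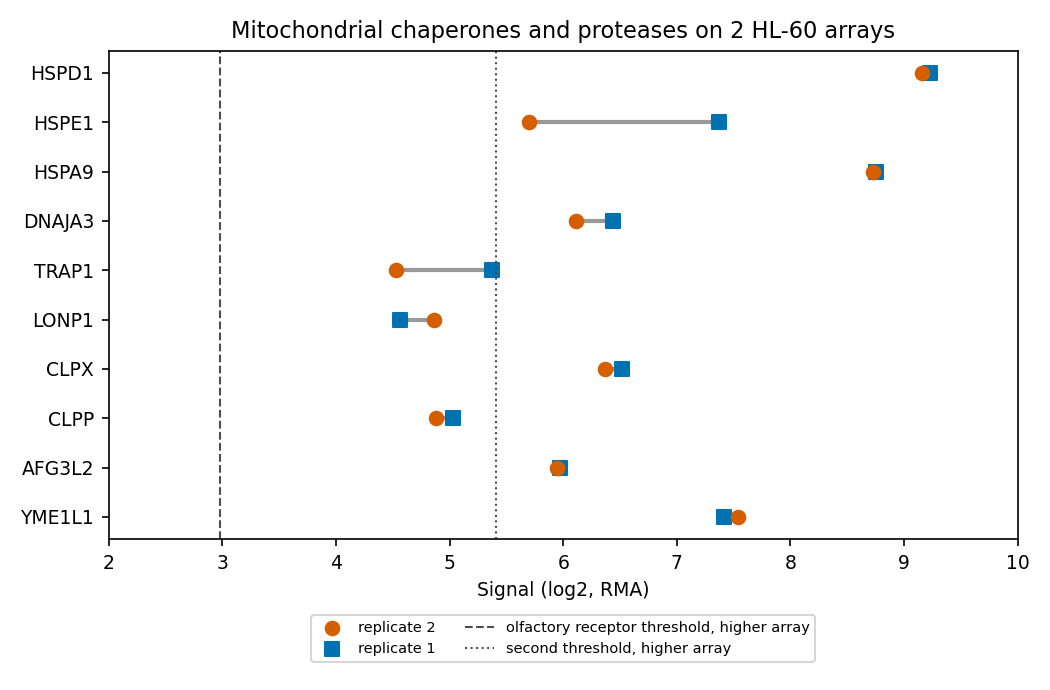
Signal (log2, RMA) of the 10 genes on replicate 2 (circles) and replicate 1 (squares), with lines joining the arrays; the dashed and dotted lines are the olfactory and the stricter background thresholds on the array where each is higher. HSPE1 (5.70 and 7.37) and TRAP1 (4.53 and 5.37) have the longest lines, and the symbols of HSPD1, HSPA9 and AFG3L2 nearly coincide.

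The lid and the barrel of the HSP60 chamber parted. HSPE1 (probe set 8047223), whose product HSP10 caps the chamber, read 5.70 on replicate 2 and 7.37 on replicate 1. Its mean was 6.53 ± 1.18 (SD, n = 2), and its difference of -1.67 corresponds to a signal 3.19-fold lower on replicate 2. That is 4.25 times the SD of the difference over all genes, and only 11 of the 18404 genes had a lower difference.

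HSPD1 (probe set 8058052), which encodes the HSP60 barrel itself, read 9.16 on replicate 2 and 9.22 on replicate 1 (9.19 ± 0.05, SD, n = 2). Its difference of -0.07 was well inside the spread, so the gap in difference between HSPE1 and HSPD1 was -1.61. Both genes have many processed copies: RefSeq names 28 pseudogenes of HSPE1 and 22 of HSPD1 by their symbols. Their signals are uncertain where probes match such copies, which was not tested because the probe sequences were not used here.

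The genes on either side, chosen after the value of HSPE1 had been seen, did not read lower by over 0.5 with it. Beyond HSPD1, COQ10B, a coenzyme Q chaperone gene, read 5.51 on replicate 2 and 4.90 on replicate 1. Beyond HSPE1, the probe set shared by MOB4 and the HSPE1-MOB4 readthrough gene read 3.61 on replicate 2 and 3.57 on replicate 1. RFTN2 and BOLL, further along, lay below both thresholds on both arrays. MARS2, the mitochondrial methionyl-tRNA synthetase gene between them, read 6.25 on replicate 2 and 5.83 on replicate 1. On the far side of COQ10B, the splicing factor gene SF3B1 read 8.34 on replicate 2 and 8.15 on replicate 1. Leaving HSPD1 (-0.07) aside, all 4 of these neighbouring signals above the olfactory threshold were higher on replicate 2, by 0.04 (MOB4) to 0.61 (COQ10B). Of all 10266 genes above that threshold on both arrays, 4894 were higher. Below the threshold, RFTN2 (-0.38) and BOLL (-0.30) read lower.

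**Figure D2:**
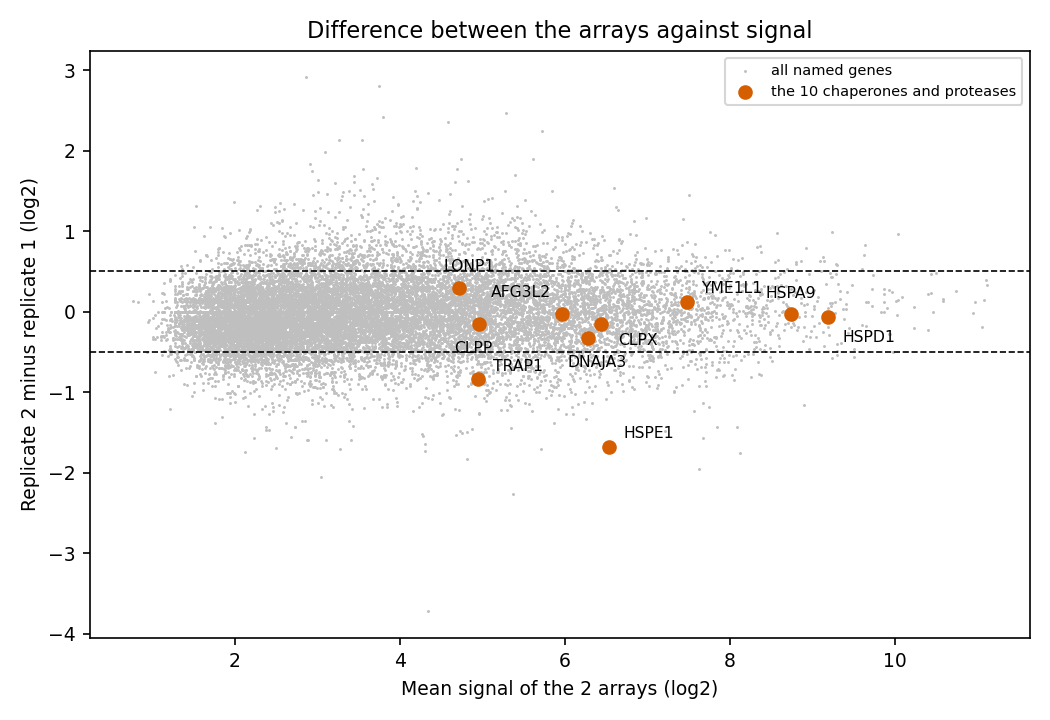
Difference between the arrays (replicate 2 minus replicate 1, log2) against the mean signal of both (log2), for all 18404 genes (grey points) and the 10 chaperones and proteases (named points); dashed lines mark 0.5 in each direction. HSPE1, at -1.67, lies at the lower edge of the cloud for its signal, TRAP1 lies at -0.84, and the other 8 lie between the dashed lines.

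In the matrix HSP70 system, the signal of HSPA9 itself was nearly equal on the arrays, and its exchange factor GRPEL1 read lower on replicate 2 by over 0.5. HSPA9 (probe set 8114455), which pulls imported proteins into the matrix and folds them, read 8.72 on replicate 2 and 8.75 on replicate 1 (8.74 ± 0.02, SD, n = 2). DNAJA3 (probe set 7992973), which hands substrates to HSPA9, read 6.11 on replicate 2 and 6.44 on replicate 1. Its difference of -0.33 was within the SD over all genes.

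GRPEL1, the main nucleotide exchange factor of HSPA9, read 6.53 on replicate 2 and 7.07 on replicate 1, a difference of -0.54. Its paralogue GRPEL2 differed by 0.13 and was the highest of the co-chaperone list. Of 8 measured genes of the co-chaperone list 7 passed the olfactory threshold, against 55.8% of all genes. Of the 8, 2 read lower on replicate 2 by over 0.5 and 0 higher, against 9.58% lower and 7.95% higher over all genes. The lowest difference was that of CLPB, a disaggregase of the intermembrane space and no part of the matrix HSP70 system, which read 5.10 on replicate 2 and 5.89 on replicate 1.

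TRAP1, the HSP90 of the matrix, has 2 probe sets. Probe set 7999025, annotated to its RefSeq mRNAs, read 6.57 on replicate 2 and 7.60 on replicate 1. Probe set 7992954, annotated to a single cDNA, read 2.50 on replicate 2 and 3.13 on replicate 1 and passed the olfactory threshold on replicate 1 only. Both differ in the same direction, by -1.04 and -0.64.

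These probe sets lie 4.07 apart on replicate 2 and 4.47 apart on replicate 1, so the mean used for the gene (4.95 ± 0.59, SD, n = 2) describes neither well. By that mean TRAP1 differed by -0.84, and by its brighter probe set it would also pass the stricter background threshold and a difference of 1. HSP90AA1, the stress-inducible HSP90 of the cytosol, differed by -0.17. HSP90B1 of the endoplasmic reticulum differed by -0.005, at 9.82 on replicate 2 and 9.83 on replicate 1. Across all 12 measured counterparts in the cytosol, endoplasmic reticulum and peroxisome, 2 read lower by over 0.5 and 2 higher, against 9.58% lower and 7.95% higher over all genes, with a median difference of -0.09. DNAJB1, a heat-inducible J-domain gene, was the lowest of them (4.28 on replicate 2 and 5.08 on replicate 1), and DNAJA2 was the highest (7.24 on replicate 2 and 6.65 on replicate 1). The cytosolic HSP70 gene HSPA8 differed by 0.19 and its endoplasmic reticulum relative HSPA5 by -0.38.

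The matrix proteases stayed within the spread. LONP1 (probe set 8033002), which degrades oxidised and unassembled matrix proteins, read 4.86 on replicate 2 and 4.56 on replicate 1 (4.71 ± 0.21, SD, n = 2). Its difference of 0.30 was the highest of the 10, and 17.7% of all genes had a higher one. Its peroxisomal relative LONP2 differed by 0.07.

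CLPX (probe set 7989735), the unfoldase, read 6.36 on replicate 2 and 6.52 on replicate 1. CLPP (probe set 8025028), the peptidase it feeds, read 4.88 on replicate 2 and 5.03 on replicate 1. Both differed by -0.15, and 37.8% of all genes had a lower difference than CLPX and 38.4% a lower one than CLPP.

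The 2 members of the inner membrane differed little between the arrays, whereas most genes of the scaffold list differed by over 0.5. AFG3L2 (probe set 8022342), a subunit of the m-AAA protease, read 5.95 on replicate 2 and 5.97 on replicate 1 (5.96 ± 0.02, SD, n = 2). SPG7, which encodes its partner subunit paraplegin, read 3.39 on replicate 2 and 2.99 on replicate 1, close to background on replicate 1. YME1L1 (probe set 7932678), the i-AAA protease, read 7.54 on replicate 2 and 7.41 on replicate 1, a difference of 0.12. OMA1, the stress-activated protease that with YME1L1 cleaves the fusion factor OPA1, differed by -0.65 (4.65 on replicate 2, 5.30 on replicate 1).

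Of 4 measured genes listed with the inner membrane scaffolds, 3 read lower on replicate 2 by over 0.5 and 0 higher, against 9.58% lower and 7.95% higher over all genes. PHB1, a prohibitin whose rings surround the m-AAA protease, read 6.89 on replicate 2 and 8.46 on replicate 1, a difference of -1.57. PHB2, its ring partner, differed by -0.84, and STOML2, which holds YME1L1 in a complex with the protease PARL, by -0.93; these 2 were named after their values were seen. AFG1L, the remaining gene of that list, differed by 0.23. The gap in difference was -1.55 between PHB1 and AFG3L2, and -1.05 between STOML2 and YME1L1.

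**Figure D3:**
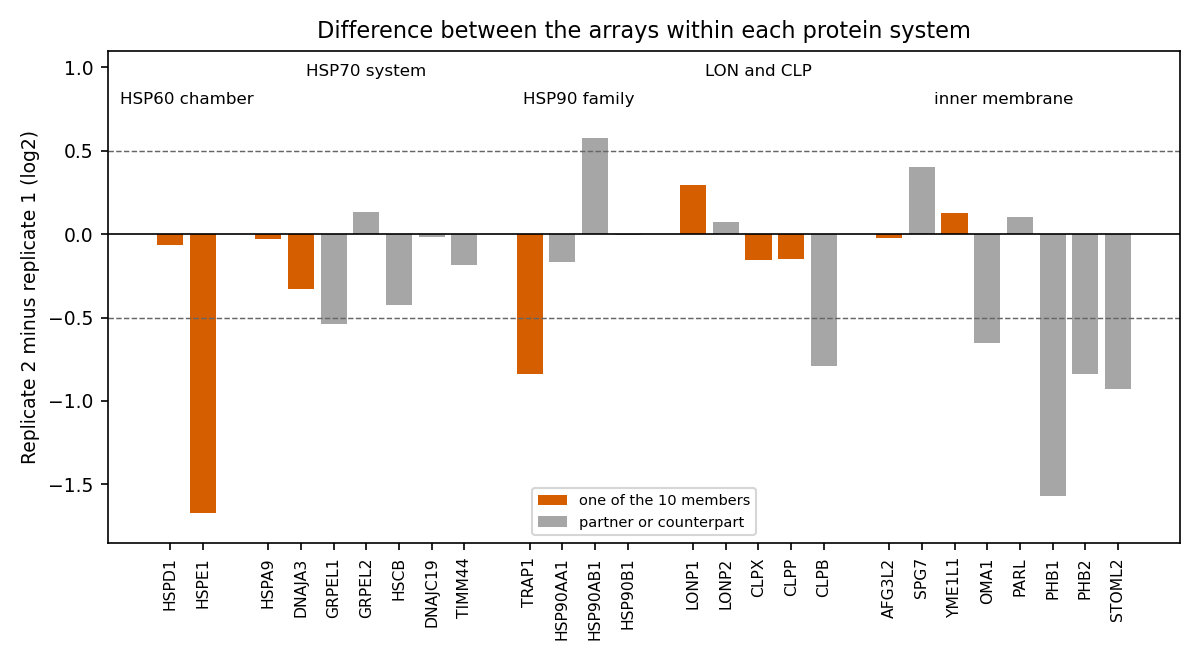
Difference between the arrays (replicate 2 minus replicate 1, log2; 1 array on each side, so no error bars) for members (orange) and for their partners or counterparts elsewhere in the cell (grey), grouped by protein system; dashed lines mark 0.5 in each direction. HSPE1 (-1.67) stands beside HSPD1 (-0.07), and PHB1 (-1.57) beside AFG3L2 (-0.02).

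Of 13 further mitochondrial proteases, 4 read lower on replicate 2 by over 0.5 and 0 higher, against 9.58% lower and 7.95% higher over all genes. At any size 7 were lower and 6 higher, against 52.6% and 42.1% of all genes, and their median difference was -0.20. PMPCA, a subunit of the peptidase that removes import signals, had the lowest difference (4.75 on replicate 2, 5.81 on replicate 1), and SPG7 the highest.

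Among 17 measured protein import genes 5 were lower by over 0.5 and 1 higher, against 9.58% lower and 7.95% higher over all genes, with a median difference of -0.28. TIMM17A, a channel subunit that YME1L1 degrades under stress, read 6.07 on replicate 2 and 6.94 on replicate 1. TIMM9, a small chaperone of the intermembrane space, went the other way (5.68 on replicate 2, 4.81 on replicate 1).

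Among 9 genes of known protease substrates 2 were lower by over 0.5 and 0 higher, against 9.58% lower and 7.95% higher over all genes, with a median difference of -0.15. MRPL32, a ribosomal protein that the m-AAA protease matures, was the lowest (-0.69), and SMDT1, a calcium uniporter subunit that it degrades when unassembled, the highest (0.01). Among 14 measured genes of general mitochondrial content 3 were lower by over 0.5 and 0 higher, with the same shares over all genes. Their median difference was -0.26, from the citrate synthase gene CS (-0.61) to SDHA (0.16).

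The members were also set beside the ATF4 programme, which had already been seen to read higher on replicate 2 and is no independent evidence here. Of 26 measured ATF4 targets, 15 read higher on replicate 2 by over 0.5 and 0 lower, against 7.95% and 9.58% of all genes, with a median difference of 0.64. CTH, a transsulfuration enzyme gene, had the highest difference (6.56 on replicate 2, 4.67 on replicate 1), and ALDH18A1, of proline synthesis, the lowest (5.36 on replicate 2, 5.85 on replicate 1). ASNS, the asparagine synthetase gene, differed by -0.29 although it is a classical target.

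LONP1 (0.30) and HSPA9 (-0.03) both lay below the median of the ATF4 targets and under 0.5. With 1 array on each side, neither can be called different from 0, nor from the targets.

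Among 11 measured stress regulators 2 read higher by over 0.5 and 1 lower, against 7.95% higher and 9.58% lower over all genes. ATF4 itself, which is controlled largely at translation, read 5.84 on replicate 2 and 5.85 on replicate 1. ATF5, which acts in the mitochondrial response of mammalian cells, read 7.27 on replicate 2 and 6.31 on replicate 1. DDIT3, which encodes CHOP, read 3.86 on replicate 2 and 3.22 on replicate 1, and NRF1, an activator of nuclear genes for mitochondrial proteins, 3.91 on replicate 2 and 4.46 on replicate 1.

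**Figure D4:**
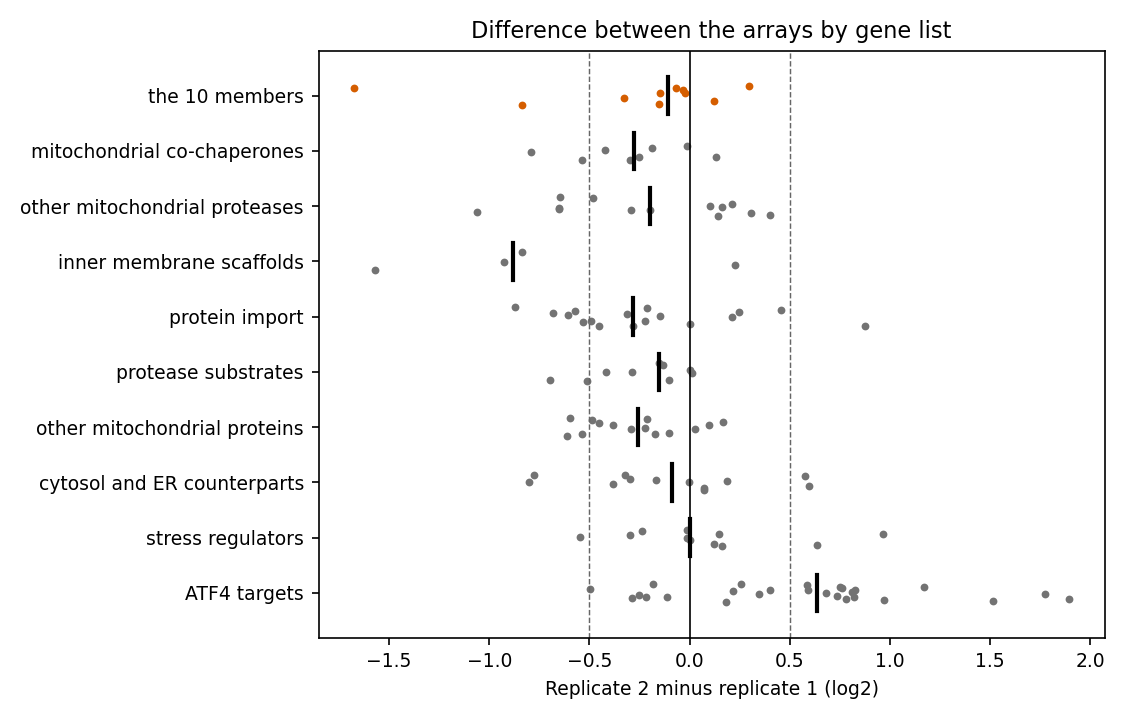
Difference between the arrays (replicate 2 minus replicate 1, log2) for each measured gene of 10 lists, with the list's median as a black bar and dashed lines at 0.5 in each direction; the vertical scatter within a list has no meaning. The 10 members (orange, median -0.11) have 2 points left of -0.5 and none right of 0.5, while 15 of 26 ATF4 targets lie right of 0.5.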

How the data were processed

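The authors deposited 1 log2 signal per probe set and array, produced with RMA, which corrects background, quantile-normalizes and summarises probes, per the submitters' processing notes. The log base is not stated; RMA's usual base 2 was assumed. Of 32321 probe sets, 19158 had 1 gene symbol and 1388 several. Only the first kind named genes, after an update of symbols through Entrez IDs (19128 found in RefSeq, GRCh38.p14). The 637 genes with several probe sets took the mean. Sequences are RefSeq's, and no protein sequences were used here.

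Members and lists were chosen with earlier results of these data known. Named were all members, 12 fixed genes, and the genes with the highest and lowest difference in each list, if at least 1 array exceeded the olfactory threshold. Differences were counted past 0.5. No test was possible with 1 group, and the number of arrays limits the precision. On simulated data, the median of a known shift was recovered without further normalization, with each normalization named below, and with the brightest probe set. The background thresholds and the counts were not checked in this way. The alternatives tried were quantile normalization of both arrays, a loess trend (span 0.3), the brightest probe set of each gene, the 99th percentile as threshold, the second set as background, a filter on dim genes, a difference of 1, and each array alone. Software was Python 3.11.15 with numpy 2.4.6, pandas 2.3.3, statsmodels 0.14.6 and matplotlib 3.10.9.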

Additional observations from a re-analysis of the deposited data

Results flagged for a closer look

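Probe sets with several gene symbols entered no gene value, and 12 of the 16 that hold a symbol of the lists used here exceeded the olfactory threshold on both arrays. Their signals are given because they lie outside the comparisons above. The probe set of HSPE1-MOB4 and MOB4 read 3.61 on replicate 2 and 3.57 on replicate 1. That of C2orf69 and MAIP1, an m-AAA protease partner, read 4.48 on replicate 2 and 4.53 on replicate 1. The import motor probe set of CORO7-PAM16 and PAM16 read 4.47 on replicate 2 and 4.91 on replicate 1. That of DNLZ, an HSPA9 cofactor, and CARD9 read 3.35 on replicate 2 and 3.62 on replicate 1. Of the import genes, TOMM7 with C4orf46 read 6.94 on replicate 2 and 7.32 on replicate 1, TOMM5 with FBXO10 read 5.50 on replicate 2 and 6.00 on replicate 1, and TIMM23 with TIMM23B read 5.93 on replicate 2 and 6.41 on replicate 1. One probe set of the heat-inducible pair HSPA1B and HSPA1A read 3.24 on replicate 2 and 3.76 on replicate 1. PHGDH of the ATF4 target list, with MZT2B, read 7.51 on replicate 2 and 7.79 on replicate 1. HBA1 of the markers of other cell types, with HBA2, read 4.34 on replicate 2 and 4.30 on replicate 1. SDHA with its pseudogenes read 8.70 on replicate 2 and 9.20 on replicate 1 by one probe set, and 6.35 on replicate 2 and 5.90 on replicate 1 by another.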

How the results depend on the processing

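No paired analysis was possible because there is a single group. At a difference of 1 in place of 0.5, 1 member in place of 2 was lower on replicate 2, TRAP1 no longer being counted, and 4 in place of 15 ATF4 targets were higher. On each array alone the median signal of the members ranged from 6.03 to 6.48, while 10 members passed the olfactory and 7 the stricter threshold on either array. The other 41 summary values recomputed kept their count to within 1.5 times, or moved by less than the arrays' own spread. Those of the members under the dim-gene filter could not have moved, since all 10 pass the olfactory threshold. With the highest probe set per gene 8 members passed the stricter threshold, TRAP1 joining, and at the 99th percentile of the second background set 5 did. Across quantile normalization, loess, the highest probe set and the dim-gene filter, the difference of HSPE1 ranged from -1.67 to -1.66. That of TRAP1 ranged from -1.04 to -0.80, and that of HSPD1 from -0.16 (quantile normalization) to -0.07. That of LONP1 ranged from 0.26 to 0.30, and that of HSPA9 from -0.04 to -0.03. The dim-gene filter could change none of these differences, since it removes no member. The highest probe set could change only that of TRAP1, the only member with 2 probe sets. The median difference over all genes was -0.00 after quantile normalization, against -0.04 as deposited. Scanner files were not used here, so another background correction was not run.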
